A study of Mus musculus with 6 samples.

Results

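RNA-seq libraries of stromal cells from the uteri of control (WT) and Pbrm1 cKO mice were used to measure 58 genes of the Wnt pathway. The members were taken by name: 19 Wnt ligands, 12 receptors (10 frizzled receptors with Lrp5 and Lrp6), 10 secreted inhibitors, 2 Dkk receptors (Kremen1 and Kremen2), 4 R-spondin ligands, 3 R-spondin receptors and 8 feedback targets. All 58 were found in the count table, which lists 54232 genes. Pbrm1 encodes BAF180, a subunit of the PBAF form of the SWI/SNF chromatin remodeler. The knockout mice were Pbrm1 fl/fl; PR-IRES-cre/+, in which the recombinase is expressed from the progesterone receptor locus and therefore acts in all uterine cells that express this receptor, in stroma and in epithelium, and also in the corpus luteum. Control samples are labelled WT, but littermates with floxed alleles (Pbrm1 fl/fl) and no recombinase are described as the controls of the study, so both groups may carry these alleles. Uteri came from mice of 8 to 12 weeks on day 4 of pregnancy, named as pseudopregnancy in the protocol. Per the protocol, 5 to 10 uterine horns were pooled and digested, and the cells were plated, given fresh medium after 4 h and harvested 2 h later, so the values come from short-term cultures. Each group held 3 samples.

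Wnt proteins are secreted, lipid-modified ligands that bind frizzled receptors. With the coreceptor Lrp5 or Lrp6, this protects beta-catenin from degradation, and beta-catenin then acts with Tcf/Lef transcription factors, whereas other Wnts act through frizzled and Ror receptors without beta-catenin. R-spondins and their Lgr receptors raise the number of receptors at the cell surface by removing the ubiquitin ligases Znrf3 and Rnf43, while Sfrp and Dkk proteins hold the pathway back from outside the cell. In the mouse uterus Wnt4 takes part in decidualization, and Wnt5a and Wnt7a take part in forming the glands and the epithelium.

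Pbrm1 itself (chr14:31019138-31121592) had 1354, 1385 and 1677 normalized counts in WT replicates 1, 2 and 3 and 397, 459 and 451 in the Pbrm1 cKO replicates, that is, 29.6% of the WT mean (log2 fold change -1.76, SE 0.13, adjusted p = 5.19e-40). Normalized counts are raw counts divided by the DESeq2 size factor of the library, values are listed in the order of the replicate numbers, and gene positions are those of the count table (GRCm38). Total counts ran from 13253575 to 18338667 per library, and 3 counts corresponded to between 0.164 and 0.226 CPM (counts scaled to a common library total). The 12 marker genes of stromal cells summed to between 6573 and 7871 CPM in WT and to between 5824 and 6182 CPM in Pbrm1 cKO. Of these 12 genes, 5 were lower and 1 was higher (50% called, beside 31.1% of all genes tested and 40.9% of those with a mean of at least 50 normalized counts), with a median log2 fold change of -0.22. There were 7 lower and 2 higher without WT replicate 1 and 4 to 6 lower and 0 to 1 higher without any other single library. Vim, an intermediate filament of mesenchymal cells, had 31775 to 36871 normalized counts across WT replicates and 27268 to 29136 in Pbrm1 cKO (log2 fold change -0.27, adjusted p = 0.0124, and 0.0922 or 0.104 without Pbrm1 cKO replicate 2 or 3). Col1a1, a collagen, was lower by more (-0.69, adjusted p = 5.65e-06). The part of stromal cells in the Wnt gene values was not tested. WT replicate 1 stood apart from the other WT libraries in markers of other cell types, with 130 CPM of endothelial markers against 373 and 325 CPM, and members whose call changes without it are given both ways. In bulk libraries a lower share of cells of one type cannot be told apart from less RNA of a gene per cell.

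Of the 58 members, 41 had enough counts to be tested across all genes. In Pbrm1 cKO, 7 of these were higher (Wnt2, Wnt7a, Wnt7b, Lrp6, Kremen1, Lgr6 and Znrf3), 12 were lower (Wnt4, Wnt11, Fzd2, Fzd6, Dkk2, Lgr4, Axin2, Lef1, Tcf7, Nkd1, Nkd2 and Notum) and 22 did not pass the adjusted p threshold of 0.05. The 19 called members are 46.3% of those tested, beside 31.1% of all 17471 genes tested (15.9% higher and 15.2% lower). Called genes are more frequent at high counts. Among the 27 members with a mean of at least 50 normalized counts, 17 were called (63.0%), beside 40.9% of all genes at that level. The median log2 fold change of the tested members was -0.044, beside -0.00060 over all genes. Replicates of the groups did not overlap for 22 of the 41 members, beside 48.6% of all genes tested. With edgeR's quasi-likelihood test 10 members were higher and 13 lower, beside 41.4% called of the 14162 genes that it tested. That test used another filter on low counts, which Rspo2, Rspo3 and Rnf43 did not pass, so the 41 members are not its base. Without WT replicate 1, 10 members were higher and 14 lower, beside 2837 of all genes higher and 2646 lower. With all libraries these numbers over all genes were 2774 and 2658.

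**Figure D1:**
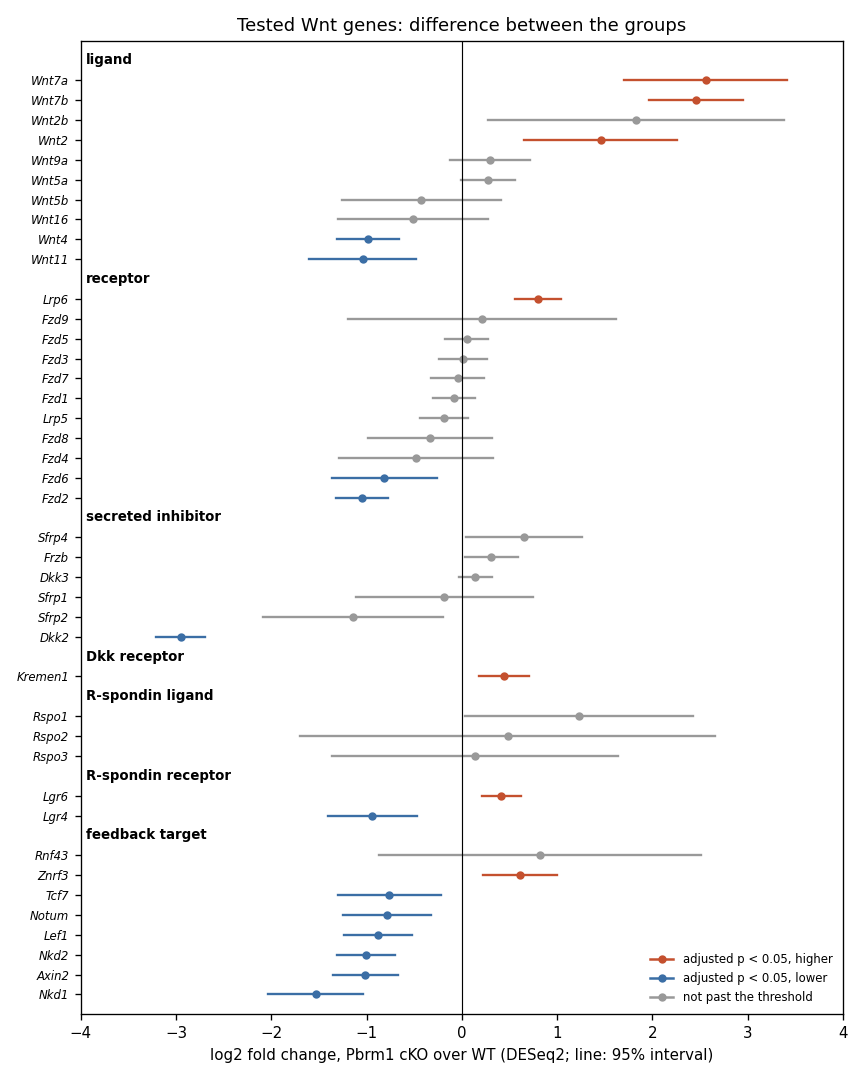
Log2 fold change (Pbrm1 cKO over WT, DESeq2) of the 41 tested members on the x axis, by role, with lines for the 95% interval. Red marks the 7 members that were higher, blue the 12 that were lower and grey those not past the threshold, and blue points fill the feedback targets except for Znrf3 and Rnf43.

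No count was found in any library for 6 members (Wnt1, Wnt3, Wnt3a, Wnt8b, Dkk1 and Dkk4). Another 8 members (Wnt8a, Wnt9b, Wnt10a, Sfrp5, Wif1, Kremen2, Rspo4 and Lgr5) had at most 3 counts in every library, the level treated here as the floor, and no fold is given for them. Lgr5, for example, had 0, 0 and 2 counts in WT and 0, 1 and 1 counts in Pbrm1 cKO, and Rspo4 had 2, 2 and 0 counts in WT and no count in Pbrm1 cKO. Wnt6, Wnt10b and Fzd10 were at most at 4 counts in any library and were not tested either. Counts of these 17 genes were too low for a difference to be detected.

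The bases before the transcription start are shown for 5 called members, chosen for the size of their difference, for their role or for a motif. Dkk2 had the lowest fold change of all members and Wnt7a the highest, Axin2 and Lef1 are feedback targets that fell, and Wnt11 is the only called member with a Tcf/Lef match in a window that was found. Each line gives the 250 bases before the RefSeq start (build GRCm38.p6), 5′ to 3′ on the strand of the gene, with the next base being the first of the transcript. Capitals mark matches, on either strand, to GGGCGG, known as a GC box, to the Tcf/Lef motif (CTTTGAT or CTTTGAA) or to the letters of the TATA box, which are TATAAA.
Dkk2, chr3:132085042-132085291, plus strand: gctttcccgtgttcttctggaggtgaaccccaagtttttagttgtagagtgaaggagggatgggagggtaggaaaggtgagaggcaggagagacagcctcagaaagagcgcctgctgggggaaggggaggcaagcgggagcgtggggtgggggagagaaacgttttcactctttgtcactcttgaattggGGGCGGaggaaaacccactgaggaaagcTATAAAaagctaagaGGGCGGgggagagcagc
Wnt7a, chr6:91411354-91411603, minus strand: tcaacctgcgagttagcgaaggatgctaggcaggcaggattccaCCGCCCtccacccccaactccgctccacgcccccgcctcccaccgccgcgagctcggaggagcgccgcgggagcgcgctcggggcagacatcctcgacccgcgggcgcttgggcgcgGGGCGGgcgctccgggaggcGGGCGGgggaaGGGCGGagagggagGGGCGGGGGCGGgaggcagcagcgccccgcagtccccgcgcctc
Wnt11, chr7:98834862-98835111, plus strand: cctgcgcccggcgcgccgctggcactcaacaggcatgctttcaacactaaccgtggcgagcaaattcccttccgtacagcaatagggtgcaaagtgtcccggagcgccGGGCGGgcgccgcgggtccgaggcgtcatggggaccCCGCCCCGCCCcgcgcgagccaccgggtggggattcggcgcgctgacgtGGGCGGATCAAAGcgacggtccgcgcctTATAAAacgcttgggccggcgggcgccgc
Axin2, chr11:108920099-108920348, plus strand: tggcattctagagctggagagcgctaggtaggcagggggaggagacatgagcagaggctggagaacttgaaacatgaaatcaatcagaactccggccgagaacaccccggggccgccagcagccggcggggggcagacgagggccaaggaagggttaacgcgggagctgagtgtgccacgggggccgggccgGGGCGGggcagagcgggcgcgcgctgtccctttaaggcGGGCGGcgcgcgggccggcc
Lef1, chr3:131110073-131110322, plus strand: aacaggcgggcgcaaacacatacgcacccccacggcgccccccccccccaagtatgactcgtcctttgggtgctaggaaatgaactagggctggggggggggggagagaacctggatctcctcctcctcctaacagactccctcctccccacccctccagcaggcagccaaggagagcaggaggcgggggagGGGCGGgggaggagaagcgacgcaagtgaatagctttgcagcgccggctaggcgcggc

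In Dkk2 a TATA box began 32 bases before the start, between GC boxes that began 60 and 17 bases before it. The GC boxes of Axin2 began 58 and 20 bases before the start, and the GC box of Lef1 began 58 bases before it. The 250 bases of Wnt7a held 6 GC boxes, of which the nearest began 38 bases before the start. In Wnt11 the Tcf/Lef motif began 51 bases before the start, directly after a GC box that began at 57, a TATA box began at 29, and the GC boxes at 106 and 101 overlap in 1 base. The RefSeq start lies 148 bases before that of the count table in Lef1 and 10 bases from it in Wnt7a. A RefSeq window reaching from 250 bases before to 50 bases after the start was matched for 37 of the 58 members. The Tcf/Lef motif was in 2 of these 37 windows (5.41%, Wnt11 and Dkk1), beside 8.65% of the 32851 windows of all genes, and in none of the windows of the 5 matched feedback targets (Axin2, Lef1, Tcf7, Nkd2 and Rnf43). The GC box was in 27 of the 37 windows (73.0%), beside 35.7% of all windows, and CG dinucleotides numbered 26 in the median member (range 6 to 58) and 7 in the median of all windows. A match is a stretch of letters and says nothing of what binds there, and the windows do not reach distant sites.

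Among the ligands 3 of 10 tested genes were higher and 2 were lower, beside 15.9% and 15.2% of all genes. Wnt7a (chr6:91363981-91411363), which in the uterus is known as a ligand of the epithelium, had 6.4, 7.8 and 13.0 normalized counts across WT replicates and 53.3, 55.1 and 51.6 in Pbrm1 cKO. Every Pbrm1 cKO library lay far above every WT library, and Wnt7a was 5.89-fold higher (log2 fold change 2.56, SE 0.44, adjusted p = 7.06e-08). Its close relative Wnt7b (chr15:85535437-85582473) rose from 24.6, 38.8 and 29.2 to 165.7, 169.4 and 173.6 normalized counts, again with no overlap. This was a 5.50-fold difference (log2 fold change 2.46, SE 0.25, adjusted p = 1.32e-20). Wnt2 (chr6:17988940-18030585), a ligand of mesenchymal cells, rose from 12.8, 18.9 and 11.9 to 38.5, 41.5 and 39.4 normalized counts. The Pbrm1 cKO libraries lay close together above the WT libraries (2.75-fold, log2 fold change 1.46, SE 0.41, adjusted p = 0.00216).

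Wnt4 (chr4:137277489-137299726), the ligand associated with decidualization, had 430, 347 and 486 normalized counts across WT replicates and 229, 197 and 214 in Pbrm1 cKO. All Pbrm1 cKO libraries were below all WT libraries, at 50.6% of the WT mean (log2 fold change -0.98, SE 0.17, adjusted p = 5.36e-08). Wnt11 (chr7:98835112-98855195), known for signaling without beta-catenin, fell from 82.3, 73.2 and 77.8 to 48.3, 34.4 and 31.0 normalized counts. The groups did not overlap, and the mean was at 48.7% of WT (log2 fold change -1.04, SE 0.29, adjusted p = 0.00177).

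Wnt5a (chr14:28504750-28527448), also a ligand of the branch without beta-catenin, was the most abundant Wnt in every library. Its normalized counts were 1944, 1941 and 2765 in WT and 2794, 2743 and 2509 in Pbrm1 cKO, so that WT replicate 3 lay within the Pbrm1 cKO range. The difference did not pass the test (log2 fold change 0.27, 95% interval -0.01 to 0.56, adjusted p = 0.150). Without WT replicate 3 it was 0.46 and passed (adjusted p = 3.52e-06). Wnt9a had 201 to 376 normalized counts across WT replicates and 320 to 400 in Pbrm1 cKO (log2 fold change 0.29, adjusted p = 0.332), and 0.49 with an adjusted p of 0.0456 without WT replicate 1. Wnt2b was low, with 8.6, 1.1 and 2.2 normalized counts across WT replicates and 12.8, 14.4 and 15.0 in Pbrm1 cKO. These groups did not overlap, but the adjusted p was 0.0637 (0.0249 with edgeR), and 0.0138 without WT replicate 1, which leaves WT at the floor. Wnt5b (log2 fold change -0.42, adjusted p = 0.512) and Wnt16 (-0.52, adjusted p = 0.369) had overlapping groups.

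Levels of different genes are compared as TPM, that is, counts divided by the length of the gene model and scaled to a common sum per library, and only within a library or as shares of a family. In WT the order was Wnt5a (53.4 ± 11.6 TPM), then Wnt4 (19.0 ± 3.43) and Wnt9a (17.1 ± 5.50), whose ranges overlapped, then Wnt11 (3.55 ± 0.30; SD, n = 3 each). In Pbrm1 cKO, Wnt5a (74.3 ± 6.35) was followed by Wnt9a (24.0 ± 3.43), Wnt4 (11.01 ± 1.01) and Wnt7b (7.49 ± 0.057 TPM), none of which overlapped with its neighbour, and then by Wnt2 and Wnt7a, which did overlap. In WT, Wnt7b (1.18 ± 0.247 TPM) could not be ordered against Wnt2, Wnt16 and Wnt5b, whose ranges overlapped with its own, and all of these were below Wnt11. As a share of all Wnt ligand TPM, Wnt5a took 53.4% ± 4.61 in WT and 57.1% ± 0.369 in Pbrm1 cKO, and the highest WT library, at 56.5%, lay just below the lowest Pbrm1 cKO library, at 56.7%. The share of Wnt4 was 19.0% ± 0.741 in WT and 8.47% ± 0.702 in Pbrm1 cKO, and that of Wnt7b was 1.23% ± 0.471 and 5.78% ± 0.447.

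**Figure D2:**
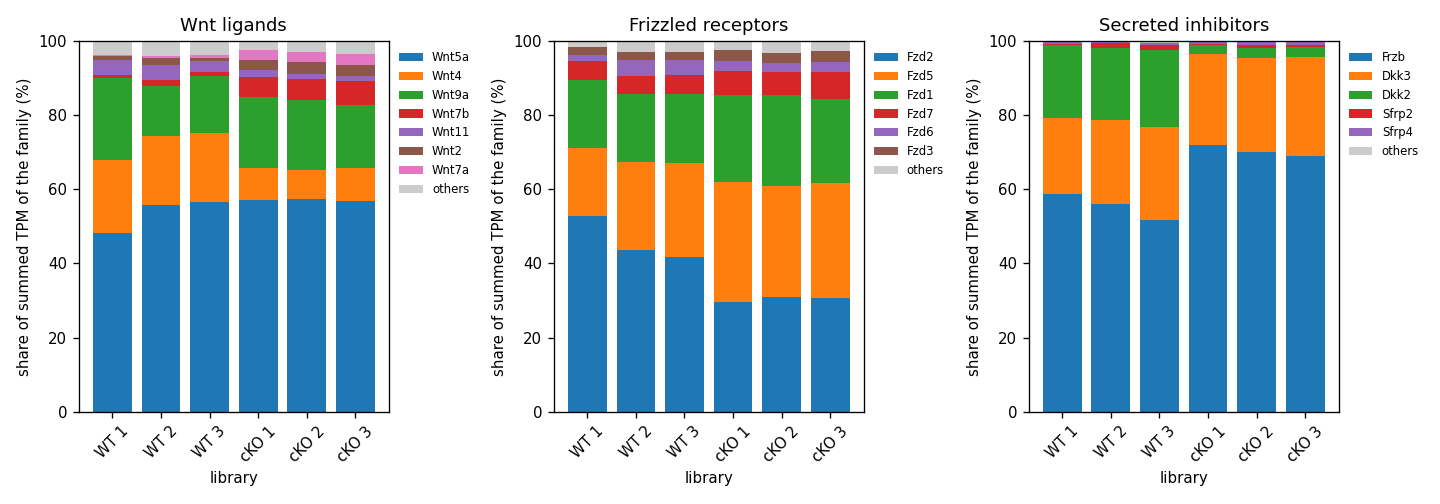
Share of the summed TPM (y axis, %) that each gene took among the Wnt ligands, the frizzled receptors and the secreted inhibitors in each of the 6 libraries (x axis), with the remaining genes of the family in grey. In the 3 Pbrm1 cKO libraries the segments of Wnt4, Fzd2 and Dkk2 are shorter and those of Wnt7b, Fzd5 and Frzb longer than in any WT library.

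Of the receptors, 3 of 11 tested genes were called (27.3%), a share no higher than the 31.1% of all genes. Fzd2 (chr11:102604396-102608058) had 2541, 1901 and 1817 normalized counts across WT replicates and 1014, 1055 and 962 in Pbrm1 cKO. Each WT library was well above each Pbrm1 cKO library, whose mean was at 48.4% of WT (log2 fold change -1.05, SE 0.14, adjusted p = 3.05e-12). Lrp6 (chr6:134446476-134566965), the coreceptor of the beta-catenin branch, rose from 860, 728 and 961 to 1468, 1550 and 1415 normalized counts. The groups were again apart (1.74-fold, log2 fold change 0.80, SE 0.12, adjusted p = 2.47e-09). Its paralog Lrp5 had a log2 fold change of -0.19 (95% interval -0.44 to 0.07, adjusted p = 0.301).

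Fzd6 (chr15:39006034-39038188) had 110, 248 and 235 normalized counts across WT replicates and 120, 110 and 106 in Pbrm1 cKO. It was called lower (log2 fold change -0.81, SE 0.28, adjusted p = 0.0152), but WT replicate 1 lay among the Pbrm1 cKO libraries. The call was lost on leaving out WT replicate 2 (-0.62, adjusted p = 0.156), WT replicate 3 (-0.67, 0.0976) or any one Pbrm1 cKO library (-0.77 to -0.86, adjusted p from 0.0539 to 0.0845), and it held without WT replicate 1 (-1.10, adjusted p = 1.47e-07). Fzd4, a receptor best known from blood vessels, had 32.1, 102 and 135 normalized counts across WT replicates and 58.2, 73.5 and 61.0 in Pbrm1 cKO (log2 fold change -0.48, adjusted p = 0.428). Without WT replicate 1 its log2 fold change was -0.88 (adjusted p = 0.00542). Endothelial markers were likewise lowest in WT replicate 1 among the WT libraries, with summed levels of 130, 373 and 325 CPM in WT and 129 to 142 CPM in Pbrm1 cKO. Of these 12 markers, 1 was higher and 4 were lower (41.7% called, beside 31.1% of all genes and 40.9% at a mean of at least 50 normalized counts), and none was at the floor in both groups. The number lower was 10 without WT replicate 1 and 1 on leaving out any other single library, with 1 higher each time. Emcn, an endothelial sialomucin, had 274, 1615 and 1327 normalized counts across WT replicates and 243 to 284 in Pbrm1 cKO (log2 fold change -2.02, adjusted p = 0.0148), and its call was lost on leaving out any library other than WT replicate 1 (adjusted p from 0.0698 to 0.121). Cdh5, a junction protein of endothelium, was not low in WT replicate 1 and had 677 to 774 normalized counts across WT replicates and 190 to 201 in Pbrm1 cKO (log2 fold change -1.89, adjusted p = 2.40e-46). The part of endothelial cells in the values of Fzd4, Fzd6 and Sfrp2, described below, was not tested.

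Fzd1, Fzd3, Fzd5 and Fzd7 had log2 fold changes between -0.09 and 0.05, and the 95% interval of each lay within -0.32 to 0.27. Fzd8 (-0.33, adjusted p = 0.511) and Fzd9 (0.21, adjusted p = 0.872) were measured less precisely. In WT the order of levels was Fzd2 (108 ± 23.0 TPM), Fzd5 (51.4 ± 4.80) and Fzd1 (42.8 ± 3.23), with no overlap between neighbours. In Pbrm1 cKO, Fzd5 (61.3 ± 6.04 TPM) and Fzd2 (59.8 ± 4.14) overlapped and Fzd1 came next (46.3 ± 5.10). The share of Fzd2 in frizzled TPM was 46.1% ± 5.87 in WT and 30.4% ± 0.714 in Pbrm1 cKO.

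Among the secreted inhibitors 1 of the 6 tested genes, Dkk2, passed the threshold in DESeq2 with all libraries and default settings (16.7%, beside 31.1% of all genes). Frzb and Sfrp2 passed under some alternatives, and Sfrp4 passed with edgeR. Dkk2 (chr3:132085292-132180304), which binds Lrp5 and Lrp6, had 1391, 1230 and 1150 normalized counts across WT replicates and 158, 169 and 160 in Pbrm1 cKO. The Pbrm1 cKO mean was at 12.9% of WT, and the replicates of each group lay close together (log2 fold change -2.95, SE 0.13, adjusted p = 6.92e-108). Its share of the TPM of secreted inhibitors was 19.8% ± 0.890 in WT and 2.61% ± 0.196 in Pbrm1 cKO. Dkk3, a divergent Dkk protein not known to block Lrp5 or Lrp6, had 1256 to 1338 normalized counts across WT replicates and 1398 to 1465 in Pbrm1 cKO. These groups did not overlap, yet the difference was small and did not pass (log2 fold change 0.14, 95% interval -0.03 to 0.32, adjusted p = 0.247).

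Frzb (chr2:80411970-80447625), a decoy that binds Wnt ligands, was the most abundant inhibitor, with 3669, 3139 and 2488 normalized counts across WT replicates and 4150, 3874 and 3499 in Pbrm1 cKO. The ranges overlapped through WT replicate 1 (log2 fold change 0.31, adjusted p = 0.0890), and without that library the change was 0.45 (adjusted p = 0.000596). Frzb also passed with the replicate number as a block (adjusted p = 0.027). The share of Frzb in inhibitor TPM was 55.4% ± 3.59 in WT and 70.3% ± 1.46 in Pbrm1 cKO, in which Dkk2 had the smaller share. Sfrp2 had 19.2, 55.5 and 41.1 normalized counts across WT replicates and 12.8, 23.2 and 16.0 in Pbrm1 cKO. WT replicate 1 was again the lowest of its group and lay within the Pbrm1 cKO range, the adjusted p was 0.0555 with all libraries (log2 fold change -1.15) and 0.00574 without WT replicate 1 (-1.47), and edgeR gave 0.0458. With another filter on low counts in DESeq2 it was 0.0435, and over the other alternatives with the same null hypothesis it ran from 0.0595 to 0.351. Sfrp4 (31.1 to 41.7 normalized counts across WT replicates and 50.3 to 71.9 in Pbrm1 cKO) had an adjusted p of 0.101 with DESeq2 and 0.0381 with edgeR (log2 fold change 0.65 with either). Sfrp1 was low in both groups, with a mean of 19.5 ± 5.61 normalized counts for WT against 17.2 ± 2.29 for Pbrm1 cKO (SD, n = 3 per group, log2 fold change -0.18, adjusted p = 0.826).

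**Figure D3:**
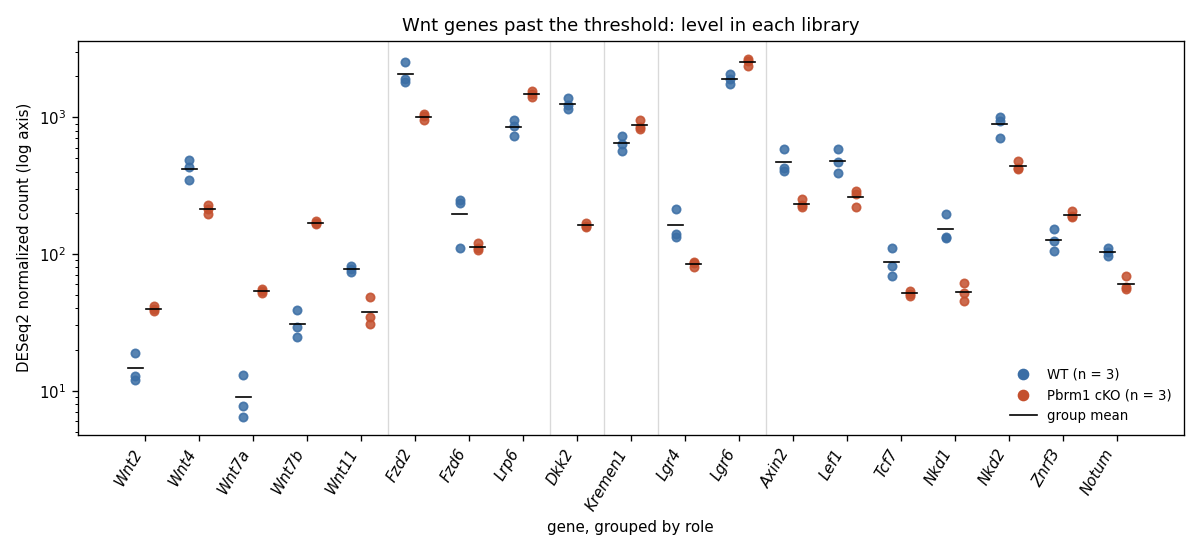
DESeq2 normalized counts (y axis, log scale) of the 19 called members in each library, grouped by role along the x axis, with WT in blue, Pbrm1 cKO in red and bars at the group means. The groups are apart for 18 genes, and for Fzd6 1 WT library lies among the Pbrm1 cKO libraries.

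Kremen1 (chr11:5191552-5261558), a receptor that binds Dkk proteins together with Lrp6, had 734, 633 and 568 normalized counts across WT replicates and 956, 856 and 818 in Pbrm1 cKO. The groups did not overlap (1.36-fold, log2 fold change 0.44, SE 0.13, adjusted p = 0.00419), and the call was lost without Pbrm1 cKO replicate 1 (0.38, adjusted p = 0.0670). Znrf3 (chr11:5276324-5444847), the ubiquitin ligase that removes frizzled receptors, lies 14765 bases from Kremen1 on the same strand. It rose from 124, 104 and 154 to 207, 190 and 186 normalized counts, with each Pbrm1 cKO library above each WT library (1.53-fold, log2 fold change 0.61, SE 0.20, adjusted p = 0.00832). That call was lost without WT replicate 2 (0.48, adjusted p = 0.0788), Pbrm1 cKO replicate 1 (0.57, 0.0793) or Pbrm1 cKO replicate 2 (0.63, 0.0533). Its relative Rnf43 was near the limit of detection, with 2.2 to 7.5 normalized counts across WT replicates and 4.8 to 9.9 in Pbrm1 cKO (adjusted p = 0.533).

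R-spondin transcripts were scarce in both groups, at 1.30 ± 0.25 TPM for the sum of the 4 ligands in WT and 2.49 ± 0.617 TPM in Pbrm1 cKO. These sums describe the level within each group, and the difference between them was not tested. With DESeq2, 0 of the 3 tested ligands passed the threshold, 1 had an unadjusted p under 0.05, and edgeR called 1 of them. This was Rspo1, with 6.5 to 7.5 normalized counts across WT replicates and 12.0 to 19.7 in Pbrm1 cKO (log2 fold change 1.23, adjusted p = 0.117 with DESeq2 and 0.0200 with edgeR). Rspo2 (0.48, adjusted p = 0.805) and Rspo3 (0.14, adjusted p = 0.925) had overlapping groups. The receptors were much more abundant, and Lgr6 (chr1:134983301-135105276) took 89.3% to 92.5% of their TPM in WT. Lgr6 rose from 2058, 1921 and 1752 to 2690, 2578 and 2363 normalized counts, with no overlap (1.33-fold, log2 fold change 0.41, SE 0.10, adjusted p = 0.000474). Lgr4 (chr2:109917647-110014257) went the other way, from 213, 133 and 139 to 85.8, 79.9 and 87.3 normalized counts. The mean of Lgr4 in Pbrm1 cKO was at 52.1% of WT (log2 fold change -0.94, SE 0.24, adjusted p = 0.000532), and Lgr6 reached 95.9% to 96.5% of the summed receptor TPM there.

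Of the 8 feedback targets, genes whose transcription is known to rise with beta-catenin signaling in many tissues, 6 were lower and 1 was higher. The 7 called are 87.5% of these genes, beside 31.1% of all genes and 40.9% of genes with a mean of at least 50 normalized counts. Their median log2 fold change was -0.83, beside -0.00060 over all genes tested. Axin2 (chr11:108920349-108950783), a scaffold of the complex that degrades beta-catenin, had 584, 405 and 426 normalized counts across WT replicates and 252, 222 and 227 in Pbrm1 cKO. The groups were clearly apart, with Pbrm1 cKO at 49.5% of WT (log2 fold change -1.01, SE 0.17, adjusted p = 7.24e-08). Nkd1 (chr8:88521354-88594884), which binds Dishevelled, fell from 195, 131 and 133 to 45.4, 51.9 and 61.0 normalized counts, at 34.5% of WT. This was the lowest fold change among the feedback targets (log2 fold change -1.53, SE 0.26, adjusted p = 3.01e-08). Nkd2 (chr13:73818534-73847631) fell in the same way from 947, 1011 and 707 to 481, 424 and 419 normalized counts (log2 fold change -1.01, standard error 0.15, adjusted p = 1.46e-09). No replicates of the groups overlapped for either Nkd gene.

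Lef1 (chr3:131110471-131224356) and Tcf7 (chr11:52252371-52283014) encode transcription factors that carry beta-catenin to DNA. Lef1 had 585, 469 and 390 normalized counts across WT replicates and 274, 290 and 221 in Pbrm1 cKO (log2 fold change -0.88, SE 0.18, adjusted p = 1.54e-05). Tcf7 had 82.3, 68.8 and 110 normalized counts across WT replicates and 51.3, 49.5 and 53.5 in Pbrm1 cKO (log2 fold change -0.76, SE 0.27, adjusted p = 0.0209). The groups of both genes were apart, but the call of Tcf7 was lost without WT replicate 3 (-0.56, adjusted p = 0.163) or any one Pbrm1 cKO library (-0.73 to -0.79, adjusted p from 0.0678 to 0.109). Notum (chr11:120653788-120661175), a secreted enzyme that removes the lipid from Wnt ligands, fell from 103, 111 and 97.3 to 57.2, 55.1 and 68.5 normalized counts, without overlap. Its log2 fold change was -0.78 (SE 0.24, adjusted p = 0.00430), and the adjusted p was 0.0541 without Pbrm1 cKO replicate 2 (-0.72). Over all alternatives that keep the same null hypothesis, between 4 and 6 feedback targets were lower.

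Of 62 further genes of the pathway, 59 were tested, 13 were higher and 17 were lower, with a median log2 fold change of -0.016. The 30 called are 50.8% of those tested, beside 31.1% of all genes and 40.9% of genes with a mean of at least 50 normalized counts. By role the share called was 48.0% of the core genes, 53.3% of the branch without beta-catenin and 46.2% of the other modulators. Without Pbrm1 cKO replicate 2 the number higher was 8. Of the 2 genes for Wnt secretion, Wls, the carrier of Wnt proteins to the cell surface, fell from 3296, 3548 and 3934 to 1907, 1950 and 2038 normalized counts (log2 fold change -0.87, standard error 0.10, adjusted p = 1.22e-16). Of 25 cytoplasmic and nuclear core genes, 9 were higher and 3 lower, with 6 of each after removal of a trend with gene length. The number of core genes that were higher was 6 without WT replicate 2, and 5, 4 and 5 without Pbrm1 cKO replicates 1, 2 and 3. Ctnnb1, the gene for beta-catenin, had 11006, 10987 and 10835 normalized counts across WT replicates and 7700, 7560 and 7348 in Pbrm1 cKO. This was a tight difference (68.9% of WT, log2 fold change -0.54, SE 0.07, adjusted p = 2.45e-12), in a gene whose protein is regulated mainly by degradation. Bcl9, a coactivator of beta-catenin, rose from 421, 486 and 475 to 896, 845 and 765 normalized counts (log2 fold change 0.86, standard error 0.12, adjusted p = 5.94e-11).

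In the branch without beta-catenin 3 of 15 genes were higher and 5 lower. Ror1, a receptor for Wnt5a, rose from 18.2, 18.9 and 13.0 to 39.5, 43.1 and 57.2 normalized counts (log2 fold change 1.48, standard error 0.39, adjusted p = 0.00106). The planar polarity genes Vangl1 and Vangl2 moved in opposite directions. Vangl1 rose from 300, 225 and 216 to 423, 389 and 361 normalized counts (log2 fold change 0.66, standard error 0.17, adjusted p = 0.000516). Vangl2 fell from 93.0, 98.8 and 109 to 38.5, 43.1 and 41.3 normalized counts (log2 fold change -1.29, standard error 0.25, adjusted p = 3.69e-06). Daam2, a formin that binds Dishevelled, was at 30.1% of WT (log2 fold change -1.73, SE 0.25, adjusted p = 1.21e-10).

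Of 15 other modulators, 13 were tested and the 6 that were called were all lower, with a median log2 fold change of -1.08 over the 13. Apcdd1, a membrane inhibitor of the pathway, fell from 312, 168 and 194 to 63.1, 57.5 and 46.9 normalized counts (log2 fold change -2.01, standard error 0.27, adjusted p = 4.58e-12). Cthrc1, a secreted protein that joins Wnts to Ror2, fell from 49.2, 87.7 and 95.1 to 4.9, 10.4 and 15.0 normalized counts (log2 fold change -2.93, standard error 0.44, adjusted p = 8.47e-10). Of 5 other targets, 4 were tested, and these went both ways. Myc, a transcription factor of cell growth, rose from 1288, 1111 and 1539 to 2732, 2717 and 2450 normalized counts (log2 fold change 1.00, standard error 0.13, adjusted p = 5.82e-13). Tnfrsf19, a receptor of the TNF receptor family, fell from 142, 131 and 112 to 78, 56.7 and 69.4 normalized counts (log2 fold change -0.92, standard error 0.23, adjusted p = 0.00046).

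**Figure D4:**
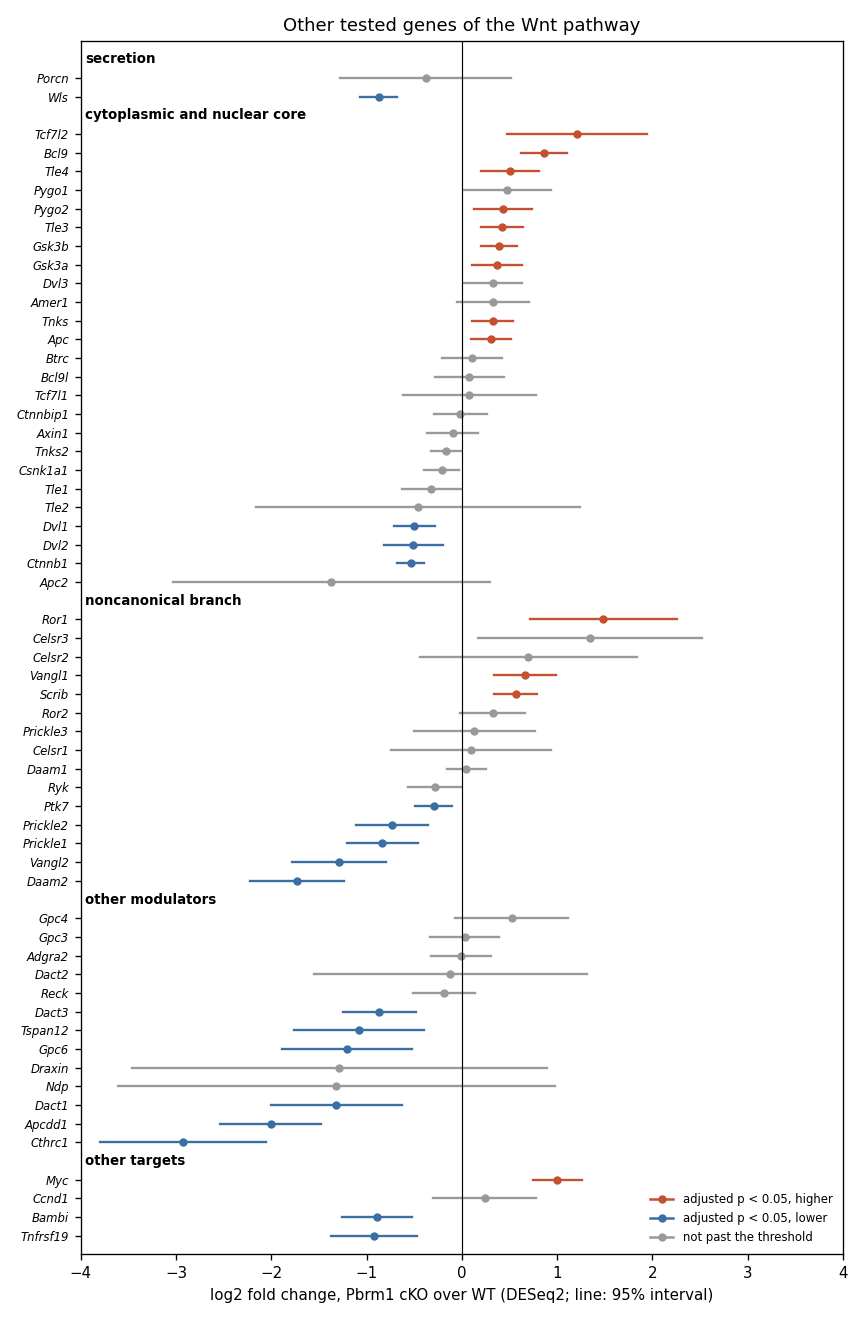
Log2 fold change (x axis, Pbrm1 cKO over WT, DESeq2) of the 59 tested genes of the Wnt pathway outside the 58 members, by role, with lines for the 95% interval and colors by call. The other modulators hold 6 called genes, all to the left of 0, whereas 9 of the 12 called core genes lie to the right.

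Per the methods of the study, staining for cytokeratin and vimentin found the isolated cells to be mostly stromal. Markers of other cell types nevertheless had counts, and some moved with Wnt genes. Epithelial markers, which bear on Wnt7a and Wnt7b, summed to 133, 240 and 226 CPM in WT and to between 264 and 279 CPM in Pbrm1 cKO. Of the 15 epithelial markers, 14 were tested, and Foxa2, a gland marker, was at the floor in both groups. With all libraries 4 were higher and 0 lower (28.6%, beside 15.9% of all genes called higher and 31.1% called in either direction). The median log2 fold change of the 14 was 0.54. Between 3 and 6 were higher over the alternatives that keep the same null hypothesis. Without WT replicate 1, 4 were higher and 1 was lower. The keratin Krt8 had 362 to 588 normalized counts across WT replicates and 677 to 687 in Pbrm1 cKO (log2 fold change 0.52, adjusted p = 0.00920), and its call was lost without Pbrm1 cKO replicate 1 or 2 (adjusted p = 0.0558 and 0.0649). Its partner Krt18 had a log2 fold change of -0.27 (adjusted p = 0.0725), and was the marker called lower without WT replicate 1 (-0.35, adjusted p = 0.00917). Leukocyte markers differed more, with 170 to 323 CPM in WT and 1352 to 1439 CPM in Pbrm1 cKO. Of those 14 markers, 13 were tested and 12 were higher (92.3%, beside 15.9% of all genes). Cd74 had a log2 fold change of 3.05 and an adjusted p of 2.30e-103, and Nkg7 was at the floor in both groups. Smooth muscle markers summed to 1582 to 2174 CPM in WT and to 1296 to 1396 CPM in Pbrm1 cKO. Of 10 markers, 9 were tested and 4 were lower (44.4%, beside 31.1% of all genes called in either direction, 15.2% called lower and 40.9% called at a mean of at least 50 normalized counts), 5 did not pass the threshold and Myocd was at the floor. With DESeq2, 0 of 4 mesothelial markers passed the threshold (0 with an unadjusted p under 0.05, 0 with edgeR), and their sum was 0.577 to 3.09 CPM in WT and 3.64 to 4.31 CPM in Pbrm1 cKO. The part of epithelial cells, leukocytes and smooth muscle in the Wnt gene values was not tested.

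**Figure D5:**
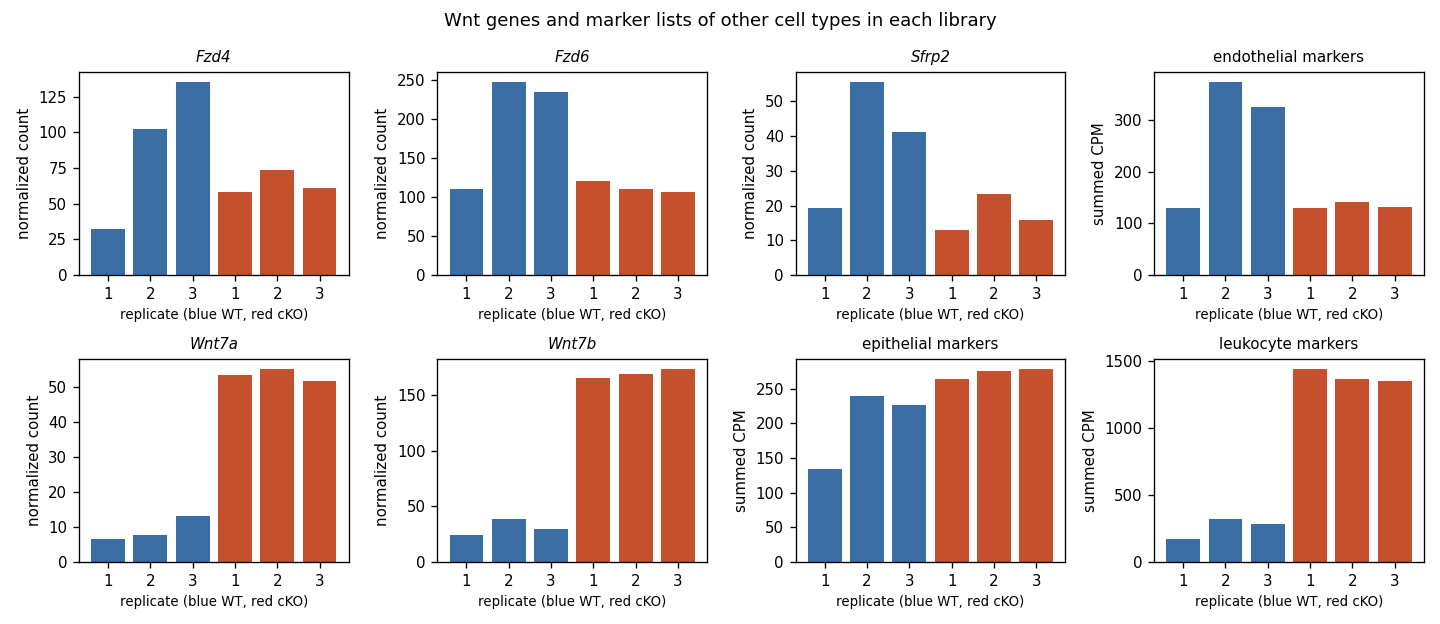
Normalized counts of Fzd4, Fzd6, Sfrp2, Wnt7a and Wnt7b and summed CPM of endothelial, epithelial and leukocyte markers (y axes) in each library (x axis, WT replicates in blue, Pbrm1 cKO replicates in red). WT replicate 1 is the lowest WT library in every panel, and only in the panels of Wnt7a, Wnt7b, epithelial and leukocyte markers are all Pbrm1 cKO libraries above all WT libraries.

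Some members lie side by side in the genome. Beside Kremen1 and Znrf3, both higher, Lef1 and Dkk2 are 860935 bases apart on chromosome 3 and were both lower. Other neighbouring pairs were not comparable, since at least 1 gene of Wnt6 and Wnt10a, Wnt10b and Wnt1, Wnt3a and Wnt9a, Wnt9b and Wnt3, and Dkk4 and Sfrp1 was not tested. Of the 58 members, 23 overlap another gene of the table and 7 overlap one on the same strand, where reads of both genes are left out of the counts. The highest total of such a same-strand gene was 9 counts over the 6 libraries (Gm42449 at Lef1). That total leaves out the shared reads too, so it does not give the number of reads lost. Wnt5b shares bases with Fbxl14 on the opposite strand (2751 counts in all) and Wnt5a with Gm2670 (212 counts), and counting was by strand.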

How the data were processed

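RNA was measured in 3 WT and 3 Pbrm1 cKO samples of primary uterine stromal cells, grouped by the labels. Single-end reads were trimmed by the authors with cutadapt, aligned with HISAT2 to GRCm38 (patch p5 in the submitters' processing notes) and counted with featureCounts 1.6.4 in reverse-stranded mode (setting 2) on GENCODE mouse release 18, leaving out reads that map to several places or overlap several genes. The deposited table holds raw counts per gene and library, with no normalization, and the gene length used here for TPM. The labels describe random and poly(T) priming with depletion of unwanted transcripts but poly(A) selection is given in the methods of the study, so the captured RNA is not settled by these sources. Gene names were matched for 54079 of 54232 identifiers.

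The Wald test of DESeq2 1.42.0 (R 4.3.3) was run on the counts of all 6 libraries, with default size factors and filtering and without covariates, followed by Benjamini-Hochberg adjustment over the 17471 genes tested, at a threshold of 0.05. A positive log2 fold change means higher in Pbrm1 cKO. Adjusted p-values are from DESeq2 unless edgeR (4.0.16, quasi-likelihood test) is named. The floor was set at 3 counts in each library of a group. Floors cover counting error only, since reads carried no molecular identifiers. The study calls its replicates biological, but the labels do not say which animals were pooled into each sample, so p-values measure the spread between these samples. TPM and CPM were computed from the counts, and TPM were not tested. Counts of replicates differed by more than sampling noise in every pair. The pipeline was tested on simulated data.

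The members and lists (62 further pathway genes, marker lists) were chosen with earlier results of these data known. The text names all members, of the further pathway genes called at a mean of 50 normalized counts or more the top 3 and the bottom 3 by log2 fold change, 1 more per role at any mean level, of a marker list at most the 2 with the highest mean level, Pbrm1 and genes that overlap a member. Markers at the floor in both groups (Foxa2, Nkg7 and Myocd) are named outside this rule and were chosen after their values were seen. Promoter windows are from RefSeq (GRCm38.p6). Alternatives were edgeR, TMM scaling, other filters, a test against a log2 fold change of 0.58, removal of a trend with gene length, a replicate block, and leaving out each library.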

Additional observations from a re-analysis of the deposited data

How the results depend on the processing

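Of the 19 called members, 14 kept their call and direction in each of the 12 alternatives other than the test against a fold threshold (Wnt2, Wnt4, Wnt7a, Wnt7b, Wnt11, Fzd2, Lrp6, Dkk2, Lgr4, Lgr6, Axin2, Lef1, Nkd1 and Nkd2), and the other five are described above with the libraries they depend on. When the null hypothesis was a change of at most 0.58 in log2 (adjusted p threshold of 0.1), 2 members were higher and 4 lower (Wnt7a, Wnt7b, Fzd2, Dkk2, Nkd1 and Nkd2), 1 further pathway gene was higher and 5 were lower, and 699 of all genes were higher and 563 lower. Leaving out 1 library gave 5 to 10 members higher and 9 to 14 lower, 8 to 14 further pathway genes higher and 15 to 19 lower, and 1924 to 2926 of all genes higher and 1801 to 2646 lower. No called member changed direction. Log2 fold changes of 6 members that were not called changed sign on leaving out 1 library, with ranges of -0.021 to 0.038 for Fzd3, -0.032 to 0.12 for Fzd5, -0.086 to 0.0054 for Fzd7, -0.22 to 0.63 for Fzd9, -0.33 to 0.071 for Sfrp1 and -0.21 to 0.42 for Rspo3. Removal of the length trend gave -0.17 for Fzd3 and -0.036 for Fzd5. The cause of these changes was not tested. Samples with the same replicate number did not deviate together from their group means when correlated over genes (correlations of 0.052, -0.050 and -0.0043). The labels do not say whether such samples shared a preparation, and these correlations cannot settle it. With the replicate block, 7 members were higher and 9 lower (Fzd6, Notum, Tcf7 and Znrf3 lost their call and Frzb gained one, with 0.32 and an adjusted p of 0.027), and 2159 of all genes were higher and 1811 lower. With removal of the length trend, Frzb (0.35, adjusted p = 0.0449) and Lrp5 (-0.32, adjusted p = 0.0275) were also called. Depth limits the 17 untested members, for which a difference was not detectable.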
